A study of Solanum lycopersicum with 8 samples.

Results

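The AP2/ERF superfamily of transcription factors, with its DREB branch, was described in tomato (Solanum lycopersicum) leaves treated with tunicamycin. Members were the genes whose description in the deposited count table named an ethylene-responsive transcription factor, an ethylene response factor, a dehydration-responsive element-binding protein or an AP2-like factor. These descriptions matched 157 transcripts of 139 genes, out of 29081 genes in all, and each gene is represented by its transcript with the most counts. The choice rested on names, not on expression. Superfamily genes under other names, such as the Pti and RAV factors, were not included.

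Proteins of this superfamily bind DNA through the AP2 domain. Ethylene signalling raises the activity of a group of them, the ethylene response factors (ERFs), which bind the GCC box of defence and stress genes, while DREB proteins bind the dehydration-responsive element and switch on genes of drought and cold tolerance. Some ERFs activate their targets and others repress them, and the AP2-like branch mostly directs organ growth and flower development.

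All libraries came from total RNA of leaves, made with a directional kit. Tunicamycin, an antibiotic that blocks N-linked glycosylation in the endoplasmic reticulum (ER) and so causes ER stress, was compared with control at 2 h and at 6 h, with 2 biological replicates in each of the 4 groups. No source used here gives the cultivar, the tunicamycin dose, how it was applied or what the control leaves received. Values are CPM, counts scaled to a common library size with TMM, a correction for library composition, printed for library 1 (biological replicate 1) and then library 2.

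The 8 libraries held from 4689769 to 122784850 counts, and members took between 0.199% and 0.379% of them. Each group had 1 deeper library (library 2 in control, library 1 in tunicamycin) and 1 shallower library, with a depth ratio of 5.49 to 9.98. Leaf mesophyll markers, 25 genes with none at 0 in all libraries, summed to 22400 to 47400 CPM, against at most 6.92 CPM for 4 ripe fruit markers and at most 5.09 CPM for 9 root markers. At 2 h the leaf markers summed to 30100 to 34000 CPM in control and 36900 to 44200 CPM in tunicamycin leaves, and 21 pollen and anther markers, 4 of them at 0, to 483 to 619 and 343 to 478 CPM. These sums did not overlap between the arms at 2 h, and their part in the results below was not tested. In leaf tissue, fewer cells of a type and less RNA per cell cannot be told apart.

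Of the 139 members, 98 had enough counts to be tested, and 21 of the other 41 had no count in any library. The highest total among the untested members was 66 counts over all 8 libraries. Low detection fell unevenly over the named groups. In the group ERF069 to ERF119, 10 of 22 genes were tested, and among the ERN factors, known from legume nodulation, 1 of 6. All 6 RAP2 factors, all 5 cytokinin response factors and all 3 ABR1-like factors were tested.

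More members were called lower with tunicamycin than higher, as were more of all genes. Of the 98 tested members, 52 had a mean log2 fold change above 0 and 46 below. Averaged over both times, 12 members fell and 3 rose (edgeR quasi-likelihood test, adjusted p under 0.05), while 83 did not pass. Over all 20272 genes tested, 1.3% were lower and 0.158% higher. With members limited to a mean of at least 1 CPM over all libraries, 10 fell and 3 rose of 76, which is 17.1%, against 1.68% of 17258 genes with the same minimum. The median log2 fold change of the tested members was 0.06, against 0.04 for all genes, and the calls lay in the tails. Genes listed as vascular markers, 76 with 9 at 0, also moved with tunicamycin. The list takes in every gene with xyloglucan in its description, so it does not stand for vascular cells alone. Of its 57 tested genes, 2 fell and none rose for the mean effect, with a median of -0.47. At 2 h the median was -0.59 with none called. Their summed levels overlapped between the arms at both times, at 2720 to 3910 CPM in control and 3240 to 3350 CPM in tunicamycin leaves at 2 h and at 2400 to 2900 and 2810 to 4390 CPM at 6 h. Their part in the members' calls was not tested. For each of the 15 called members, both tunicamycin libraries lay beyond both control libraries at 2 h and again at 6 h. The number called was 8 without the 2 h control library 1, 2 without the 2 h control library 2, 6 without the 2 h tunicamycin library 1 and 5 without the 2 h tunicamycin library 2. A stricter filter, 1 transcript per gene or limma-voom also ended some of these calls. In limma-voom LOC101263899, LOC101263697, LOC101268109 and ERF-H1 no longer passed, with a minimum of 1 CPM LOC101268109 and ERF-H1 did not, and with 1 transcript per gene ERF-H1 and LOC104645451 did not.

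**Figure D1:**
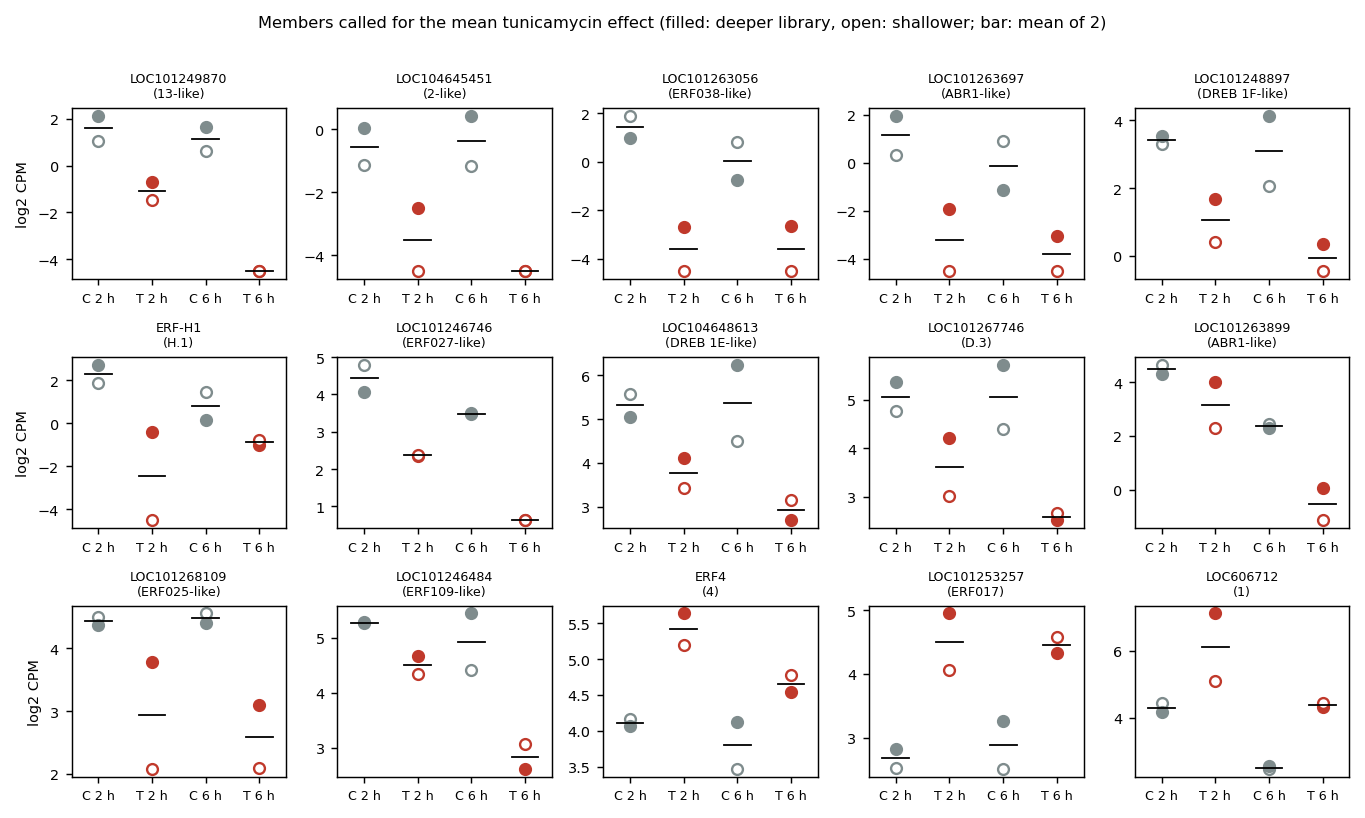
Levels of the 15 members called for the mean tunicamycin effect, as log2 CPM (vertical axis, different range in each panel) in control (C) and tunicamycin (T) leaves at 2 h and 6 h. Filled points are the deeper and open points the shallower library of each group, and the bar is their mean. The 12 members in the panels up to LOC101246484 lie lower in tunicamycin leaves and the last 3, ERF4, LOC101253257 and LOC606712, lie higher.

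Among the DREB1/CBF genes, which are best known as switches of the cold response in Arabidopsis, 2 of the 5 tested members fell with tunicamycin, none rose and 3 did not pass. LOC104648613, named DREB 1E-like after an Arabidopsis relative of the cold factors, stood at 47.6 and 33.1 CPM in control leaves at 2 h and at 17.3 and 10.6 CPM in tunicamycin leaves. At 6 h it stood at 22.4 and 75.9 CPM in control and at 6.4 and 8.88 CPM in tunicamycin leaves. Control libraries were above tunicamycin libraries at both times, although the control replicates at 6 h lay far apart. The mean log2 fold change was -2.10 ± 0.35 (standard error, adjusted p = 0.00967), a level 4.29-fold lower, and at 6 h alone it was -2.70 ± 0.51 (adjusted p = 0.0452). The call at 6 h ended without any 1 of 7 libraries, all but the 6 h control library 1 (adjusted p from 0.0781 to 0.32), and without the 6 h control library 2 the fold change was -1.57. Its mean call ended without the 2 h control library 2 (adjusted p = 0.0586) and without the 2 h tunicamycin library 1 (0.0663) or 2 (0.0696).

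LOC101248897, DREB 1F-like, carries the name of an Arabidopsis factor known for salt stress and for lowering gibberellin. It stood at 9.76 and 11.4 CPM in control and 3.16 and 1.29 CPM in tunicamycin leaves at 2 h, then at 4.13 and 17.5 CPM in control and 1.23 and 0.683 CPM in tunicamycin leaves at 6 h. The arms did not overlap at either time, with the deeper control library at 6 h the highest of all 8. It fell by 2.79 ± 0.46 on the log2 scale over both times (adjusted p = 0.00737) and by 3.43 ± 0.66 at 6 h (adjusted p = 0.0452). At 6 h this call too ended without any library but the 6 h control library 1 (adjusted p from 0.0684 to 0.256), and the fold change was -2.03 without the 6 h control library 2. The mean call ended without the 2 h control library 2 (adjusted p = 0.0802) and without the 2 h tunicamycin library 1 (0.0549) or 2 (0.0511). A second gene of the same description, LOC101246953, stood at 0.814 and 0.803 CPM against 0.0879 and 0 CPM at 2 h. Its tunicamycin libraries were below both controls at 6 h too. Averaged over both times it gave a log2 fold change of -3.31 ± 1 and did not pass (adjusted p = 0.203).

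The pair named DREB 1A, the description of the Arabidopsis cold factor CBF3, took another course. LOC101263186 stood at 31.1 and 25.8 CPM in control and 69.9 and 46 CPM in tunicamycin leaves at 2 h, and at 24.2 and 82.3 CPM and 32.7 and 52 CPM at 6 h. LOC109119806 stood at 6.1 and 4.33 CPM against 22.7 and 8.36 CPM at 2 h, and at 5.53 and 14.2 CPM against 4.35 and 7.51 CPM at 6 h. For both genes the arms were apart at 2 h, with tunicamycin higher, and overlapped at 6 h. The mean log2 fold changes were 0.35 ± 0.34 and 0.44 ± 0.38, and neither passed (adjusted p = 0.951 and 0.93). At 2 h alone they were 1.03 ± 0.48 (adjusted p = 0.689) and 1.64 ± 0.56 (0.476). In the authors' deposited table for 2 h, LOC109119806 had a log2 fold change of 1.66 with a false discovery rate of 0.00945, and LOC101263186 had 1.05 with 0.0757. In the authors' deposited table for 6 h the values were -0.78 and -0.35, both with a false discovery rate of 1.

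None of the 3 tested DREB2 and 3 tested DREB3 genes passed for tunicamycin, and the mean log2 fold change of DREB 2A, LOC101245410, a factor of dehydration and heat responses in Arabidopsis, was -0.32 ± 0.47. The DREB 2D-like gene LOC101246344, singled out after its values were seen, stood at 0 and 1.58 CPM against 2.77 and 1.93 CPM at 2 h and at 0.604 and 0.521 CPM against 2.79 and 2.73 CPM at 6 h. Tunicamycin libraries were higher at both times, with no call (log2 1.78 ± 0.61, adjusted p = 0.314).

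The ABR1-like genes are named after an Arabidopsis repressor of abscisic acid responses, and 2 of the 3 fell. LOC101263899 stood at 25.2 and 19.6 CPM in control and at 16.1 and 4.82 CPM in tunicamycin leaves at 2 h, with 5.38 and 4.89 CPM against 0.989 and 0.41 CPM at 6 h. Every tunicamycin library was below both controls of its time, and the lowest values were those at 6 h. The mean effect was -1.88 ± 0.37 (adjusted p = 0.0207), at -1.27 in the deeper pairs and -2.98 in the shallower pairs. LOC101263697 stood at 1.22 and 3.84 CPM against 0.22 and 0 CPM at 2 h and at 1.81 and 0.411 CPM against 0.0783 and 0 CPM at 6 h. With only 10, 0, 8 and 0 counts in the tunicamycin libraries, its effect of -4.07 ± 0.87 (adjusted p = 0.0345) carried a wide error. LOC101251084, with 34.4 and 38 CPM against 33.5 and 19.3 CPM at 2 h and 12.1 and 12.5 CPM against 27.2 and 10.5 CPM at 6 h, did not pass (log2 0.09 ± 0.29, adjusted p = 0.993). The call of LOC101263899 ended without the 2 h control library 1 (adjusted p = 0.0769) or 2 (0.105) and without the 2 h tunicamycin library 2 (0.0534). That of LOC101263697 ended without any of 5 libraries, the 2 h control library 2, both tunicamycin libraries at 2 h, the 6 h control library 1 and the 6 h tunicamycin library 1, with adjusted p from 0.0608 to 0.431. Its fold change was -7.04 without the 2 h tunicamycin library 1 and -6.17 without the 6 h one, fitted values for a time with no tunicamycin count left.

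Members named with a number from ERF003 to ERF062, a range that holds many DREB-type factors in Arabidopsis, had 3 genes that fell and 1 that rose among 15 tested. LOC101246746, ERF027-like, stood at 27.9 and 16.6 CPM in control and at 5.1 and 5.15 CPM in tunicamycin leaves at 2 h. At 6 h it stood at 11.1 and 11.2 CPM in control and at 1.51 and 1.5 CPM in tunicamycin leaves. Replicates were close in 3 of the 4 groups, and the arms were wide apart at both times. Its mean effect of -2.49 ± 0.28 (adjusted p = 0.000644) had the smallest adjusted p of all members, and was -2.28 in the deeper and -2.64 in the shallower libraries. It was called in all 17 alternatives (highest adjusted p = 0.0156), while the call at 6 h ended without the 6 h tunicamycin library 1 (adjusted p = 0.0903).

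LOC101268109, ERF025-like, held similar levels in all 4 control libraries, 22.6, 20.6, 23.4 and 21.1 CPM, and stood at 13.7 and 4.18 CPM at 2 h and at 8.47 and 4.23 CPM at 6 h with tunicamycin. All 4 tunicamycin libraries were lower than all 4 controls, and the shallower were the lowest. The effect was -1.49 ± 0.33 (adjusted p = 0.0432), at -0.95 in the deeper pairs and -2.44 in the shallower pairs. Its call ended without either control library at 2 h, the 2 h tunicamycin library 2, the 6 h control library 1 or the 6 h tunicamycin library 2 (adjusted p from 0.0806 to 0.221). LOC101263056, ERF038-like, was a scarce transcript with 3.66 and 1.94 CPM against 0.11 and 0 CPM at 2 h and 1.71 and 0.553 CPM against 0.118 and 0 CPM at 6 h. It gave -4.31 ± 0.87 (adjusted p = 0.0239) on 17 counts in the 4 tunicamycin libraries together. Leaving out any library of 2 h, or the 6 h control library 1, ended this call (adjusted p from 0.0608 to 0.128). The fitted value moved to -6.83 without the 2 h tunicamycin library 1 and to -6.66 without the 6 h one, where the library left had no count.

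LOC101253257, named ERF017, was the member of this range that rose. It went from 5.7 and 7.03 CPM in control to 31 and 16.7 CPM in tunicamycin leaves at 2 h, and from 5.63 and 9.5 CPM to 20 and 23.9 CPM at 6 h. Every tunicamycin library was higher than every control library. The mean level was 3.27-fold higher (log2 1.71 ± 0.28, adjusted p = 0.00636), at 1.60 in the deeper and 1.81 in the shallower libraries. The call ended without the 2 h control library 2 (adjusted p = 0.0818) and without the 2 h tunicamycin library 1 (0.0663).

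Of the 10 tested genes from ERF069 to ERF119, 1 fell. LOC101246484, ERF109-like, shares its description with an Arabidopsis factor known for its response to reactive oxygen. It stood at 38.9 and 38.4 CPM against 25.4 and 20.3 CPM at 2 h, and at 21.2 and 43.5 CPM against 6.08 and 8.33 CPM at 6 h. Tunicamycin libraries were below the controls at both times and lowest at 6 h. The effect was -0.75 ± 0.36 at 2 h (adjusted p = 0.695) and -2.18 ± 0.37 at 6 h (adjusted p = 0.025), with a mean of -1.47 ± 0.26 (adjusted p = 0.0106). The difference between the times, -1.43 ± 0.51, did not pass (adjusted p = 1). The mean call ended without the 2 h control library 2 (adjusted p = 0.0921), without the 2 h tunicamycin library 1 (0.068) or 2 (0.0593), and without the 6 h tunicamycin library 1 (0.0505). The call at 6 h ended without any 1 of 6 libraries, all but the 2 h tunicamycin library 2 and the 6 h control library 1 (adjusted p from 0.0514 to 0.228).

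The plainly numbered factors 1, 2, 12 and 13 held the lowest and the highest fold change among the tested members for the mean over both times. LOC101249870, 13-like, stood at 2.03 and 4.35 CPM in control and 0.571 and 0.322 CPM in tunicamycin leaves at 2 h. At 6 h it stood at 1.51 and 3.13 CPM in control leaves, from 426 counts, and had no count in either tunicamycin library. Against a floor of 3 counts over both of these libraries, equal to 0.0257 CPM, it was at least 90.2-fold lower at 6 h. Its mean effect passed (adjusted p = 0.00211) and did so in all 17 alternatives (highest adjusted p = 0.0392), while at 6 h the call ended without the 6 h tunicamycin library 1 (adjusted p = 0.165). LOC104645451, 2-like, stood at 0.407 and 0.993 CPM against 0.132 and 0 CPM at 2 h, and at 0.402 and 1.3 CPM against no count in both tunicamycin libraries at 6 h, at least 33.2-fold lower. Its mean effect passed (adjusted p = 0.0388) and ended without any 1 of 6 libraries, all 4 of 2 h, the 6 h control library 2 and the 6 h tunicamycin library 1 (adjusted p from 0.0553 to 0.395). Low counts in every library were mostly even, with 18.6% to 26.3% odd among values of 1 to 20, so the counts may not be independent of each other. The floors assume independent counts, so the lowest folds given from them may be too high. They also leave out differences between replicates.

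LOC606712, ethylene-responsive transcription factor 1, went from 21.6 and 17.9 CPM in control to 138 and 34.4 CPM in tunicamycin leaves at 2 h, and from 5.53 and 5.85 CPM to 20 and 21.8 CPM at 6 h. Tunicamycin libraries were higher at both times, and the deeper one at 2 h lay far above the shallower. The mean level was 4.02-fold higher (log2 2.01 ± 0.35, adjusted p = 0.0116), at 2.35 in the deeper and 1.32 in the shallower libraries. Without the 2 h control library 1 (adjusted p = 0.0598) or 2 (0.16), or the 6 h control library 1 (0.113) or 2 (0.0509), it no longer passed, and without the 2 h tunicamycin library 1 its fold change was 1.33 (0.0421). In the authors' deposited tables its log2 fold change was 2.16 at 2 h and 1.86 at 6 h, with false discovery rates of 4.76e-07 and 0.0327.

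Among the tomato factors named by class letters or as ERF3 to ERF6, 2 of 13 tested genes fell and 1 rose. LOC101267746, class D.3, stood at 27.3 and 41.1 CPM against 18.5 and 8.04 CPM at 2 h and at 20.9 and 52.8 CPM against 5.7 and 6.28 CPM at 6 h. The arms were apart at both times, more so at 6 h, where the replicates of tunicamycin lay close together. Its effect was -1.99 ± 0.33 (adjusted p = 0.00889), and of 17 alternatives the 1 that ended the call left out the 2 h control library 2 (adjusted p = 0.096). At 6 h its call ended without either control library of 2 h, the 6 h control library 2 or either tunicamycin library of 6 h (adjusted p from 0.0643 to 0.249). ERF-H1, class H.1, stood at 3.66 and 6.63 CPM against 0.703 and 0 CPM at 2 h and at 2.72 and 1.07 CPM against 0.451 and 0.546 CPM at 6 h. It gave -2.69 ± 0.61 (adjusted p = 0.0477), close to the threshold, and leaving out any library but the 6 h control library 2 ended the call (adjusted p from 0.0593 to 0.42). Without the 2 h tunicamycin library 1 the fitted value was -6.44, since the library left had no count.

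ERF4, which carries the number of a repressor in Arabidopsis, went from 17.9 and 16.7 CPM to 49.8 and 36.7 CPM at 2 h and from 11 and 17.5 CPM to 23.1 and 27.3 CPM at 6 h. All 4 tunicamycin libraries were above all 4 controls. The level was 2.1-fold higher (log2 1.07 ± 0.23, adjusted p = 0.0372), with 0.99 in the deeper and 1.17 in the shallower libraries. Leaving out any library but the 6 h control library 2 ended the call (adjusted p from 0.0514 to 0.316).

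**Figure D2:**
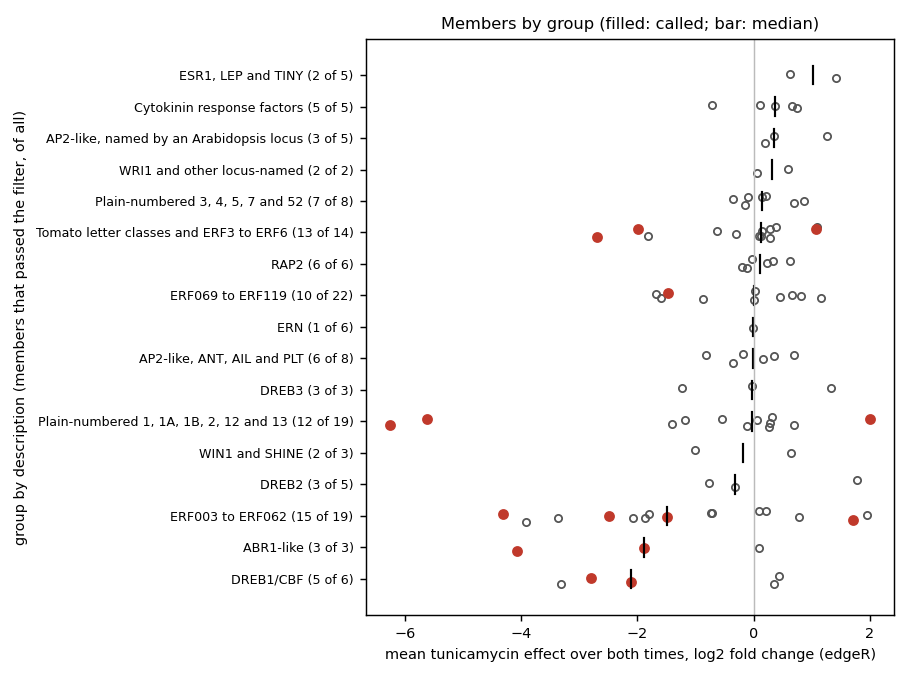
Mean tunicamycin effect over both times (log2 fold change, horizontal axis) of the 98 tested members in groups made from their descriptions, with the tested and total number of genes in brackets. Filled points were called, open points were not, and the bar is the group median. The medians of DREB1/CBF, ABR1-like and ERF003 to ERF062 genes, at -2.10, -1.88 and -1.49, lie lowest, and the other 14 medians lie between -0.32 and 1.01.

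The members with the most counts were not among those called. ERF2 stood at 710 and 767 CPM in control and 1120 and 783 CPM in tunicamycin leaves at 2 h, and at 219 and 683 CPM and 422 and 588 CPM at 6 h (mean log2 0.26 ± 0.36). LOC101249381, named factor 4, stood between 432 and 799 CPM in all 8 libraries (log2 -0.09 ± 0.30). LOC101264209, RAP2-4, stood between 147 and 257 CPM (log2 -0.12 ± 0.28). None of these differences exceeded its own standard error, which leaves room for modest changes in either direction. RAP2-12, LOC101261693, whose Arabidopsis namesake takes part in oxygen sensing, was chosen after its values were seen and gave 0.34 (adjusted p = 0.858). None of the 5 cytokinin response factors, named for their response to that hormone, and none of the 6 tested ANT, AIL and PLT genes, which act in organ growth, passed.

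At 2 h alone no member was called (smallest adjusted p = 0.0723), against 0.0543% of all genes, while 27 of 98 had an unadjusted p under 0.05, 10 higher and 17 lower, as had 1777 of all 20272 genes, 822 higher and 955 lower. DESeq2 called 6 members at 2 h, 4 higher and 2 lower, among 308 transcripts called in the whole table. In the authors' deposited table, 6 members were higher and 7 lower at a false discovery rate under 0.05. The share of all genes under that rate in the deposited tables was not counted, so these numbers have no background. At 6 h, 6 members fell and none rose, where 0.355% of all genes were lower and 0.0345% higher. These 6 were LOC101246746, LOC101249870, LOC101248897, LOC104648613, LOC101267746 and LOC101246484, which also fell in the mean over both times. The count at 6 h was 0 with the 2 groups fitted alone and 0 without the 6 h tunicamycin library 1, and 2 without any 1 of both control libraries at 2 h, the 6 h control library 2 and the 6 h tunicamycin library 2. In limma-voom LOC101248897, LOC104648613 and LOC101267746 no longer passed at 6 h, with a minimum of 1 CPM or 1 transcript per gene LOC101248897 and LOC104648613 did not, and with a depth term LOC104648613 did not. In the authors' deposited table for 6 h, 4 members were lower and 1 higher, again with no share of all genes beside them.

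Both tunicamycin libraries lay below both controls for 27 of the 98 tested members at 2 h (27.6%, against 20% of all genes) and for 23 at 6 h (23.5%, against 11.8%). They lay above for 26 at 2 h (26.5%, against 18.8%) and for 14 at 6 h (14.3%, against 13.9%). Members lower at both times numbered 18 (18.4%, against 4.65%), and those higher at both times 8 (8.16%, against 3.57%). With a mean of at least 1 CPM the shares were 15.8% lower and 9.21% higher at both times, against 4.94% and 3.78%. No member was apart and higher at 2 h but apart and lower at 6 h, where 0.922% of all genes were, and 1 had the reverse course (against 1.45%), the ERF038-like LOC101243711, with at most 1.22 CPM in any library. Of the 18 lower at both times, 6 did not pass: LOC101246841, LOC101246953, LOC101256347, LOC101257505, LOC101268766 and LOC104648964. LOC101246841, ERF018-like, bears the description of an Arabidopsis regulator of jasmonate synthesis, and stood at 0.814 and 0.76 CPM against 0.0439 and 0 CPM at 2 h and at 0.604 and 1.27 CPM against 0.118 and 0 CPM at 6 h (log2 -3.92 ± 0.97, adjusted p = 0.0806). Of the 8 higher at both times, the 5 not called were ERF-B13, LOC101246344, LOC101252282, LOC101259143 and LOC101259323. LOC101259143, ERF119, stood at 24.8 and 30.9 CPM against 65.5 and 49.8 CPM at 2 h and at 35.6 and 33.6 CPM against 47.1 and 57 CPM at 6 h (log2 0.82 ± 0.22, adjusted p = 0.119).

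**Figure D3:**
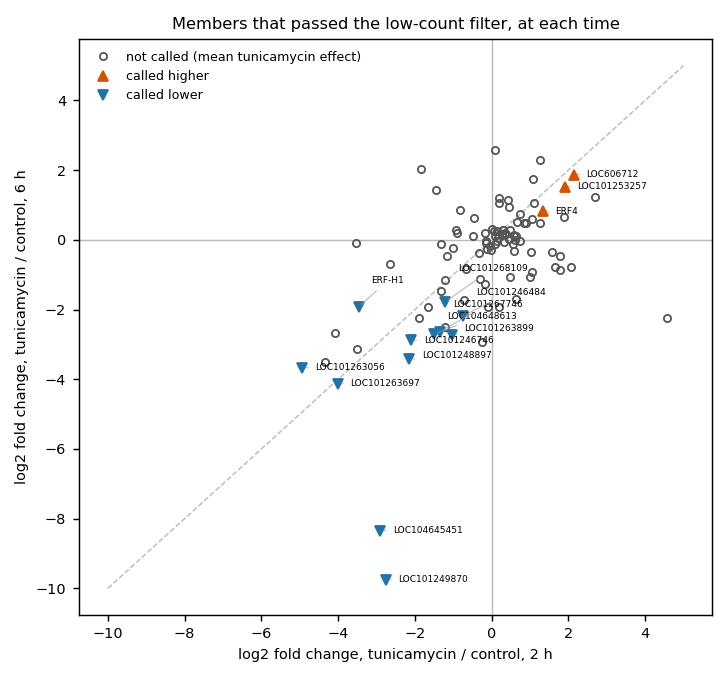
Log2 fold change of tunicamycin over control at 2 h (horizontal axis) and at 6 h (vertical axis) for the 98 tested members, with the dashed line where both are equal. Triangles mark the 15 members called for the mean over both times, pointing up for 3 and down for 12. The called members share a sign at both times, and the 2 lowest points, LOC101249870 and LOC104645451, have no count in tunicamycin leaves at 6 h, so their position on the vertical axis is a fitted value and not a measured fold.

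The effect of tunicamycin was not shown to differ between the times for any member. With the filter on low counts used here, no member and no gene of the whole table was called for that difference in edgeR (0% of genes). An unadjusted p under 0.05 was found for 8 of 98 members and for 580 of 20272 genes. DESeq2 called none, with 10 members under 0.05. With no filter, edgeR called 1 member, LOC109119806 (adjusted p = 0.0446), and 93 transcripts of the whole table, and without the 6 h control library 1 it called no member and 38 transcripts. The members with the smallest p for it were LOC101249870 and a second ERF109-like gene, LOC101251748, both with an adjusted p of 1. LOC101251748 stood at 0 and 0.0634 CPM in control and 1.1 and 1.61 CPM in tunicamycin leaves at 2 h, then at 0.201 and 2.25 CPM and at 0.353 and 0.137 CPM at 6 h. It was apart and higher with tunicamycin at 2 h, and the arms overlapped at 6 h. LOC101252357, ERF071-like, stood at 2.77 and 12.3 CPM in control and at 0.813 and 1.23 CPM in tunicamycin leaves at 6 h, with overlap at 2 h, and its difference between the times of -2.68 ± 0.91 did not pass (adjusted p = 1).

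Each comparison was also read within the 4 deeper and within the 4 shallower libraries. All 15 members called for the mean tunicamycin effect had the same sign in both. This is no separate test, since the calls came from these same libraries. The size of the effect differed for some, as for LOC101263056, at -2.79 in the deeper and -5.87 in the shallower libraries, where it had no count with tunicamycin. Over the tested members the median effect at 2 h was 0.25 in the deeper and -0.08 in the shallower libraries, and between 6 h and 2 h in tunicamycin leaves it was -0.65 and 0.

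**Figure D4:**
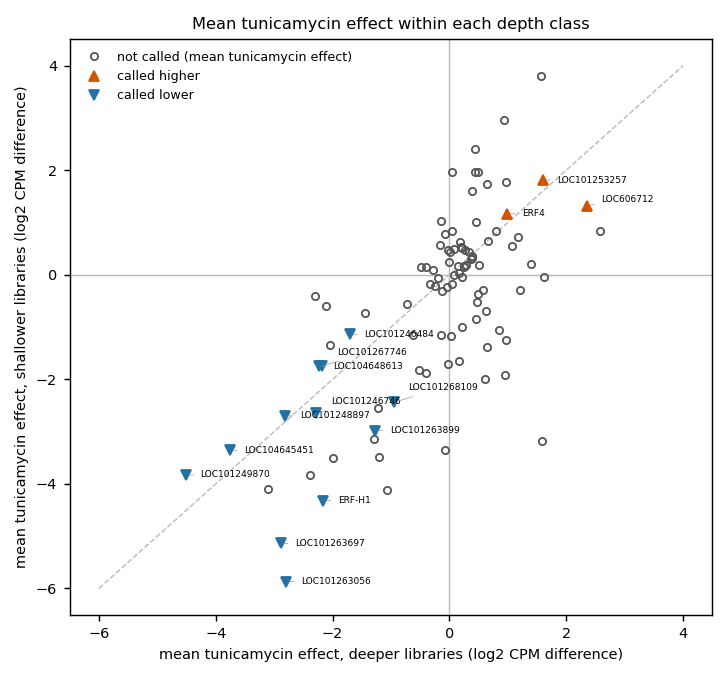
Mean tunicamycin effect over both times as a difference of log2 CPM, in the deeper libraries (horizontal axis) and in the shallower libraries (vertical axis), for the 98 tested members. Triangles mark the 15 called members, and the dashed line is equality. All 15 lie in the quadrants where both depth classes have the same sign, from -4.51 to 2.35 in the deeper and from -5.87 to 1.81 in the shallower libraries.

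Between 2 h and 6 h, averaged over both arms, 5 members fell and 1 rose, against 1.42% of all genes lower and 0.375% higher. Leaf mesophyll markers also moved with time: 7 of 24 tested fell and none rose over both arms, with a median of -0.78. Their summed levels overlapped between the times, at 30100 to 44200 CPM at 2 h and 22400 to 47400 CPM at 6 h, and their part in the members' calls was not tested. The ABR1-like gene LOC101263899, whose values are given above, fell by 2.96 ± 0.38 on the log2 scale, to a level 7.78-fold lower (adjusted p = 0.000717). In tunicamycin leaves alone it fell by 3.80 ± 0.57 (adjusted p = 0.00554), a call that ended without the 2 h tunicamycin library 1 (adjusted p = 0.125), and in control leaves its -2.12 ± 0.51 did not pass (adjusted p = 0.2). The difference between the arms, -1.68 ± 0.72, did not pass (adjusted p = 1), so a larger fall with tunicamycin was not shown.

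LOC101250096, RAP2-13, stood at 11.4 and 30.1 CPM in control and 31.8 and 15.8 CPM in tunicamycin leaves at 2 h, and at 4.33 and 3.39 CPM and 8.04 and 7.78 CPM at 6 h. All 4 libraries of 6 h were lower than all 4 of 2 h. The mean change was -2.04 ± 0.32 (adjusted p = 0.00411), at -2.56 in the deeper and -1.20 in the shallower libraries, and it passed in all 17 alternatives (highest adjusted p = 0.0454). In control leaves alone it was the only member called, lower at 6 h by -2.47 ± 0.47 (adjusted p = 0.0409), against 0.301% of all genes lower, and this ended without the 2 h control library 2 (adjusted p = 0.589), the 2 h tunicamycin library 1 (0.0668) or the 6 h control library 2 (0.28). Without the 2 h control library 2 its fold change in control leaves was -1.62. In tunicamycin leaves 2 members fell, LOC101263899 and LOC101249870, against 0.671% of all genes, and none rose, against 0.0937%. The call of LOC101249870 ended without any 1 of 6 libraries, all 4 of 2 h and both tunicamycin libraries of 6 h (adjusted p from 0.0588 to 0.338). The call of LOC101250096 in control leaves and that of LOC101249870 in tunicamycin leaves also ended with a minimum of 1 CPM and with 1 transcript per gene, the former also with only the groups compared in the fit and the latter also in limma-voom. The count of 2 in tunicamycin leaves became 0 without the 2 h tunicamycin library 1, 1 without either control library at 2 h or either tunicamycin library at 6 h, and 5 without either control library at 6 h.

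LOC606712, which rose with tunicamycin, fell between the times by 1.92 ± 0.35 (adjusted p = 0.0138), and LOC101246746, which fell with tunicamycin, fell further with time by 1.37 ± 0.27 (adjusted p = 0.0191). LOC101249870 also fell with time (adjusted p = 0.034), mainly in tunicamycin leaves, where it had no count at 6 h. In control leaves its levels, given above, overlapped between the times. DREB 2A, LOC101245410, was the member that rose with time, from 0.407 and 1.31 CPM in control and 0.615 and 0.322 CPM in tunicamycin leaves at 2 h to 3.12 and 3.19 CPM and 4.75 and 2.87 CPM at 6 h. All 4 libraries of 6 h were higher than all 4 of 2 h, with a level 4.84-fold higher (log2 2.28 ± 0.49, adjusted p = 0.0318). The call of LOC606712 ended without any 1 of 5 libraries (control, all 4, and the 6 h tunicamycin library 1, adjusted p from 0.0524 to 0.0783). For LOC101246746 it ended without the 2 h control library 1 (0.143), the 2 h tunicamycin library 1 (0.0692) or the 6 h tunicamycin library 1 (0.0645). For LOC101249870 it ended without these 3 libraries or the 2 h control library 2 (from 0.0611 to 0.24), and for LOC101245410 without any library of 2 h or the 6 h tunicamycin library 1 (from 0.0666 to 0.144). The calls of LOC101246746 and LOC101245410 also ended with a depth term, and that of LOC101249870 in limma-voom.

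**Figure D5:**
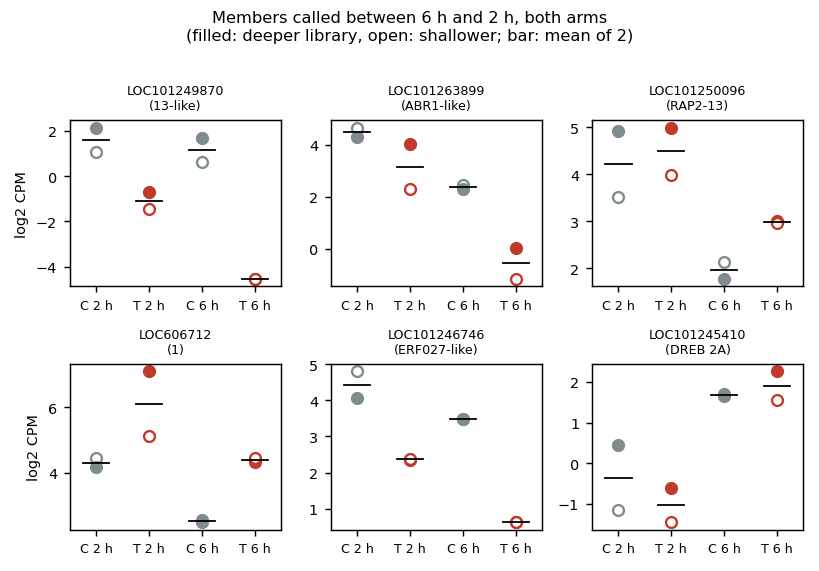
Levels of the 6 members called between 6 h and 2 h over both arms, as log2 CPM (vertical axis, different range in each panel) in control (C) and tunicamycin (T) leaves. Filled points are the deeper and open points the shallower library, and the bar is their mean. In the panel of LOC101250096 all points of 6 h lie below those of 2 h, and in that of LOC101245410 all lie above.

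Several members lie next to each other in the genome, by their order in the RefSeq annotation SLM_r2.1, in which 136 of the 139 members were found. There, 41 members formed 16 runs in which neighbours were at most 3 protein-coding genes apart. The 2 DREB1 genes that fell, LOC104648613 and LOC101248897, formed a run with a second ERF027-like gene, LOC101260455, which gave -1.86 without a call (adjusted p = 0.422). Both genes that had no count with tunicamycin at 6 h, LOC101249870 and LOC104645451, were neighbours in a run of 4. The other 2 gave means over both times of -1.40 (LOC101249592) and -1.82 (LOC101258696), not called. At 6 h alone LOC101249592 gave -1.47 and LOC101258696 only -0.1. The run of ERF5, ERF-A2 and the 5-like genes LOC101267005 and LOC101267295 held no called member, at 0.39, -0.62, 0.87 and 0.69. The DREB 1A pair also formed a run. Where such neighbours share sequence, reads could be split between them, and this was not tested. The 98 tested members held 2 pairs that share 1 reference gene, so the counts of members above may hold the same gene under both names. One pair is LOC101261712 with ERF-H14. The other is ERF-D2 with the gene described as factor 2a, SlERFD2, and their counts had a ratio of 0.929 to 1.01 in the 8 libraries.

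Gene lists around these factors in the pathway were read beside all genes, of which 1.46% were called for the mean tunicamycin effect. At that share, lists this short would hold few calls or none. Of 43 ethylene synthesis genes 27 were tested, and none was called for the mean tunicamycin effect (median log2 -0.32, against 0.04 for all genes). ACS1A, a synthase of the ethylene precursor, singled out after its values were seen, stood at 23.2 and 72.4 CPM in control and 9.71 and 7.37 CPM in tunicamycin leaves at 6 h, and its -2.48 ± 0.50 did not pass (adjusted p = 0.0665). None of 19 tested genes of ethylene reception and signalling (median 0.26), none of 23 tested dehydration and cold protection genes (median 0.14) and none of 6 tested regulators of DREB genes and proteins (median 0.02) was called for tunicamycin. ER5, 1 of 2 tested ethylene-responsive genes that are not transcription factors, fell by 2.11 on the log2 scale over both times (adjusted p = 0.00212). The other gave -0.28 and was not called. Between the times, ACO5, an oxidase of ethylene synthesis, went from 161 and 122 CPM to 6.84 and 4.61 CPM in control leaves and from 212 and 143 CPM to 16.9 and 3.55 CPM in tunicamycin leaves. It fell in both arms (adjusted p = 0.00686 and 0.0079). Averaged over both arms it was the only ethylene synthesis gene called lower, and 1 other was called higher. Of all genes, 1.42% were lower and 0.375% higher. Of the 23 tested genes in the dehydration and cold protection list, 1 was called higher and 2 lower over both arms (median log2 -0.19). The low-temperature-induced cysteine proteinase gene CYP1, listed there by its description only, rose with time (log2 1.17, adjusted p = 0.0414). LOC101246709 and LOC101268052 fell, by 1.68 and 1.15.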

How the data were processed

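Raw counts of reads per RefSeq transcript, as whole numbers in 8 libraries, were used as the authors deposited them. Reads were trimmed with Trimmomatic 0.40, per the submitters' processing notes, and the counting program, genome build and use of strand are not stated. In the authors' deposited comparison tables, fold changes are on the log2 scale, the F column is a score (a test statistic), and p-values come with an FDR, per the file headers.

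Counts of 45845 transcripts were filtered with filterByExpr (minimum count 10, minimum total 15, 4 groups), leaving 34483, and fitted in edgeR 4.0.16 (R 4.3.3) with TMM scaling, 1 mean per group and robust quasi-likelihood. Contrasts were two-sided, and p-values were adjusted by Benjamini-Hochberg over all transcripts, with calls under 0.05. With 2 libraries a group there were 4 residual degrees of freedom, and the common biological coefficient of variation was 0.353. Standard errors (± after a fold change on the log2 scale) are its size over the square root of F. Background shares use 1 transcript a gene. The procedure was run on simulated data with independent counts, in which no scarce transcript was changed. That run does not cover the scarce members or counts that are mostly even. DESeq2 1.42.0, limma-voom (limma 3.58.1), other filters and scaling, and each library left out in turn were alternatives.

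Named members were drawn from those called and the 5 with the smallest p in each comparison. The 10 with the highest mean CPM and the highest of each group were drawn on too, but not all of them are named. Members whose arms were apart at both times, and pairs that share a reference gene, are named for that, and only some have their values printed. A few others are marked as chosen after their values were seen, and neighbours are named by position. The members, groups and gene lists were chosen with earlier results of these data known. Levels were not compared between genes, since transcript lengths were not used here.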

Additional observations from a re-analysis of the deposited data

How the results depend on the processing

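No fold change followed through the alternatives changed direction. For tunicamycin at 2 h (0 called), 13 members were called with no filter on low counts, 6 with DESeq2, 1 with depth class as a block, which was added after seeing the data, and 1 with only the groups compared in the fit. Leaving out single libraries gave 0 to 4. For 6 h (6 called), the numbers were 14 with no filter, 12 with DESeq2, 3 with limma-voom and 0 with only the groups compared, and 0 to 7 without single libraries. The mean tunicamycin effect (15 called) gave 12 to 22 under the other settings and 2 to 17 without single libraries. For 6 h against 2 h in control leaves (1 called), no filter gave 4, DESeq2 3, and a minimum of 1 CPM, 1 transcript per gene and only the groups compared each 0, with 0 to 2 without single libraries. In tunicamycin leaves (2 called), no filter gave 15, DESeq2 10, a depth term 5, depth class as a block 4, and a minimum of 1 CPM, 1 transcript per gene and limma-voom each 1, with 0 to 5 without single libraries. The mean over both arms (6 called) gave 12 with no filter, 11 with DESeq2 and 2 to 9 without single libraries. The difference between the times (0 called) gave 1 with no filter and 0 in each fit without a library. Calls over all transcripts also rose with no filter and with DESeq2. At 2 h they were 16 in the main fit, 679 with no filter and 308 with DESeq2. At 6 h they were 111, 597 and 396, and for the mean tunicamycin effect 400, 1175 and 796. Between the times they were 93, 371 and 241 in control leaves and 208, 1229 and 878 in tunicamycin leaves. Over both arms they were 490, 1623 and 1251. In all these cases the cause was not tested.

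The replicates gave no sign that their numbers pair the libraries (correlations of deviations from -0.18 to 0.17). Library 1 was the shallower in control and the deeper in tunicamycin, so these correlations cannot settle it. With the replicate number as a block, 0 members were called at 2 h, 4 at 6 h, 12 for the mean effect, 0 and 1 between the times in control and tunicamycin leaves, and 6 over both arms. The block ended the mean calls of ERF4, ERF-H1 and LOC104645451 and the 6 h calls of LOC101248897, LOC104648613 and LOC101267746. It also ended the calls between the times of LOC101250096 in control leaves, LOC101249870 in tunicamycin leaves and LOC101245410 over both arms. Each group had 2 libraries, with depths that differ 5.49 to 9.98 times.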
